A study of Homo sapiens with 6 samples.

Results

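The AP-1 and immediate early genes described here are FOS, FOSB, FOSL1, FOSL2, JUN, JUNB, JUND, EGR1, IER2 and IER3. They were chosen by name and not by a rule on their values, but with earlier results of these data known. All 10 were in the table of 60668 genes and all 10 passed the filter on low values, which left 21101 genes. They were measured by RNA-seq in MiaPaCa-2, an established human pancreatic ductal adenocarcinoma line. Cells were kept for 48 h in low glucose (2.5 mM glucose, 3 libraries) or in control medium (25 mM glucose, 3 libraries), and the submitters describe the replicates of each condition as independent. The treatment text attached to the control samples also reads 2.5 mM, and the groups here follow the sample titles, the treatment tag and the design text. A single cell line stands for both conditions, and because RNA was taken in bulk, fewer cells expressing a gene and less of its RNA per cell cannot be told apart.

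AP-1 is a dimeric transcription factor in which a FOS family protein pairs with a JUN family protein, or JUN proteins pair with each other. The dimers bind a short palindrome, the TPA response element, or the related cyclic AMP response element. Several of the genes are immediate early genes, which are transcribed within minutes of a growth or stress signal without new protein synthesis and whose transcripts are short-lived. AP-1 is known in carcinoma cells as an endpoint of growth factor and MAP kinase signalling. A sample at 48 h reads the level long after the change of medium and not the first burst.

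The control libraries held 9741183, 10126218 and 10190154 reads, and the low-glucose libraries held 10841655 (replicate 1), 10595408 (replicate 2) and 13733477 reads. Values for single libraries are given in this order below. The labels name only the columns of low glucose replicates 1 and 2, and the other 4 columns were grouped from the 2 runs of column names. Replicates differed more among the controls than in low glucose: the mean chi-square per gene between pairs was 4.63 to 18.9 and 1.90 to 2.89. The highest value involved the control library of 10126218 reads. Calls among the 10 genes that change without it are given both ways. Mitochondrial genes took 2.47 to 3.82% of control reads and 4.65 to 5.12% of low-glucose reads, and the part of this in the results was not tested. VIM, KRT8, KRT18 and KRT19 had at least 2001 reads in every library, whereas EPCAM had at most 1 and CDH1 at most 3. The keratins fell in low glucose (log2 fold changes KRT8 -1.01, KRT18 -0.74, KRT19 -0.83) and VIM rose by 0.42 on the log2 scale. KRT8 and KRT18 share 525 exonic bases on opposite strands. On the strand opposite VIM, VIM-AS1 shares 656 bases (15796 to 30786 reads) and ENSG00000234961 619 bases (20569 to 43966 reads). The part of these overlaps in the marker values was not tested. CDKN2A, deleted in this line, had 0 reads, as had PTPRC, DCN, INS and PRSS1 for other cell types. Of the 10 markers of other cell types 6 were below the filter and 0 of the other 4 passed the limma test at 0.05, with 1 at an unadjusted p under 0.05.

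Normalized counts below are reads divided by the authors' size factor for the library. Fold changes are low glucose over control on the scale log2(normalized count + 1), which understates the change of low genes, and p-values come from limma with Benjamini-Hochberg adjustment over the 21101 genes. The p-values rest on the spread between these 3 libraries per condition, which limma moderates toward the spread of genes at a similar level. They do not measure the spread of the single gene alone. Among the 10 genes, JUN, JUND and IER3 rose, 0 fell and 7 did not pass 0.05. Over all genes tested 30.9% passed, 14.7% higher and 16.2% lower, so that 3 of 10 genes passing is close to the share among all genes. The 14.7 and 16.2% stand for 3111 and 3417 genes, and scaling by library size moved that split to 3949 higher and 2651 lower. At an unadjusted p under 0.05, 1 of the 10 genes (FOS) was lower, and edgeR and DESeq2 also called 0 lower. The values of the conditions did not overlap for 4 of the 10 genes, against 43.9% of all genes tested. The median log2 fold change was 0.07 for the 10 genes and 0.05 for all genes tested.

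**Figure D1:**
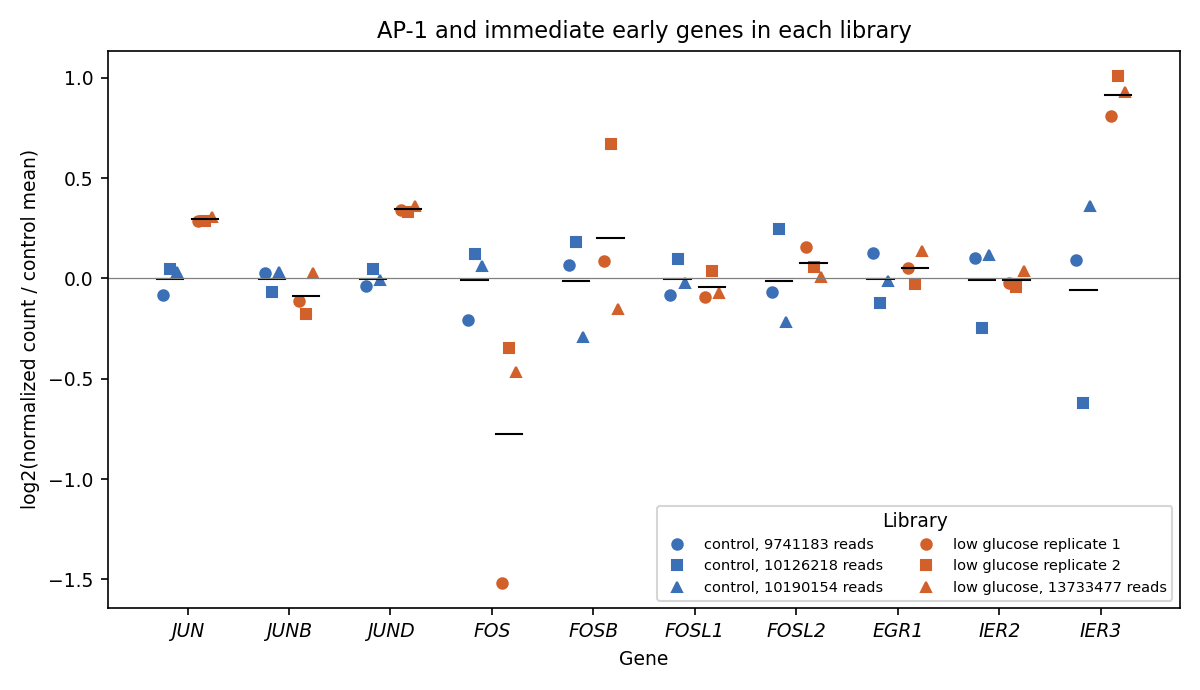
Normalized counts of the 10 genes in each of the 6 libraries (vertical axis, log2 of the value over the control mean), with a symbol for every library and a line for the mean of each condition. JUN, JUND and IER3 have every low-glucose symbol above every control symbol, FOS has every one below, and the other 6 genes overlap.

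JUN and JUND, the more abundant members of the JUN family, were higher in low glucose, and JUNB was not detectably different. JUN, the strongest activator of the family, lies on the minus strand of chr1:58776845-58784048 (hg38) and is a gene of a single exon. It had 2371, 2596 and 2569 normalized counts in the control libraries and 3066, 3068 and 3107 in low glucose. Every low-glucose library lay above every control library, and the low-glucose libraries spread little. The means were 2512 ± 123 and 3080 ± 23.4 (SD, n = 3 each), a log2 fold change of 0.30 with an SE of 0.0722 and a limma adjusted p of 0.00621.

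JUND, which differs from JUN in being expressed steadily in resting cells, is a single-exon gene on the minus strand of chr19:18279694-18281622. Its control libraries had 1080, 1145 and 1104 normalized counts and its low-glucose libraries 1407, 1394 and 1425. No low-glucose library came near the control range. From 1109 ± 32.9 to 1409 ± 15.8 (SD, n = 3 each), the log2 fold change was 0.34 (SE 0.0725, limma adjusted p = 0.00227). JUND had the highest GC content of exons among the 10 genes, 69.9%. This value was reached by 0.529% of the 20994 genes tested that have an annotated length (median 48.6%). With a GC correction the log2 fold change of JUND was 0.23 (limma adjusted p = 0.0278). With a length correction it was 0.22 (limma adjusted p = 0.0376).

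JUNB, which in many settings restrains JUN-driven transcription, is a single-exon gene on the plus strand of chr19:12791486-12793315. It had 346, 324 and 348 normalized counts in control and 314, 300.3 and 346 in low glucose, so the conditions overlapped. The log2 fold change was -0.09 with a 95% interval of -0.30 to 0.12 (limma adjusted p = 0.541). HOOK2 on the opposite strand shares 259 exonic bases with JUNB, had 40.9 to 74.3% as many reads as JUNB in each library and rose by 0.58 on the log2 scale (limma adjusted p = 0.00198). The library kit was stranded but the strand setting of the counting is not given, so the part of HOOK2 reads in the JUNB values was not tested.

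Because each library gives its own ratio of reads, the unequal movement within the family can be read without any size factor. These ratios were chosen after the values were seen and carry no test. The reads of JUN were 6.84, 8.003 and 7.39 times those of JUNB in control and 9.78, 10.2 and 8.99 times in low glucose. For JUND over JUNB the ratios were 3.12, 3.53 and 3.18 in control and 4.49, 4.64 and 4.13 in low glucose. Both sets of ratios were separate between the conditions. JUN over JUND overlapped between the conditions (control 2.20 to 2.33, low glucose 2.18 to 2.20).

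The stretches before the start sites of the JUN family are shown with the motifs they hold. The part of these motifs in the changes was not tested. The sequences are RefSeq's (GRCh38.p14), 250 bases ending at the base before the start, on the gene's strand and written 5′ to 3′. They are JUN at chr1:58784048-58784297 (minus strand), JUND at chr19:18281623-18281872 (minus strand) and JUNB at chr19:12791236-12791485 (plus strand). Capitals mark the cyclic AMP response element or its close relative (TGACNTCA) in JUN and JUND and a TATA box (TATAAA) in JUNB.
JUN: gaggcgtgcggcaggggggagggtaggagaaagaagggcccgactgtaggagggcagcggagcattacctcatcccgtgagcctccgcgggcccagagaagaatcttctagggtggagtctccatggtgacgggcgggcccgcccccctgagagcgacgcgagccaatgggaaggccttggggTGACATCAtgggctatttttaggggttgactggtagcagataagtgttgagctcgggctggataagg
JUND: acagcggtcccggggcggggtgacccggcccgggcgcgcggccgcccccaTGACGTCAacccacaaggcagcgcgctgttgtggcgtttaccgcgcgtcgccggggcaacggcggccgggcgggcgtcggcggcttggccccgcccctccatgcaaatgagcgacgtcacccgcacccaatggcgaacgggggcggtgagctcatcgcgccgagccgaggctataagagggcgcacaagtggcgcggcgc
JUNB: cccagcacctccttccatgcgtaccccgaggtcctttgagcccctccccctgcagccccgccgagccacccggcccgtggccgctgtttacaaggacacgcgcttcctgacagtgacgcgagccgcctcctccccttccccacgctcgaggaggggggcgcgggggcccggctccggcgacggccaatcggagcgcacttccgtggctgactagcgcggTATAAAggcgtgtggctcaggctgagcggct
In JUN the match TGACATCA lay 67 to 60 bases before the start, and in JUND the match TGACGTCA lay 200 to 193 bases before it. On either strand, TGACNTCA was in 7.72% of 35116 promoters searched over 250 bases before to 50 after the start, and 2 of the 8 genes with an entry held it. The TPA response element TGANTCA was in 7.71% of promoters and in 1 of the 8 genes, FOSL2, after its start. TATAAA was in 11.5% of promoters and in FOS, FOSB and JUNB. A match describes the letters and is not evidence of a bound factor.

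**Figure D2:**
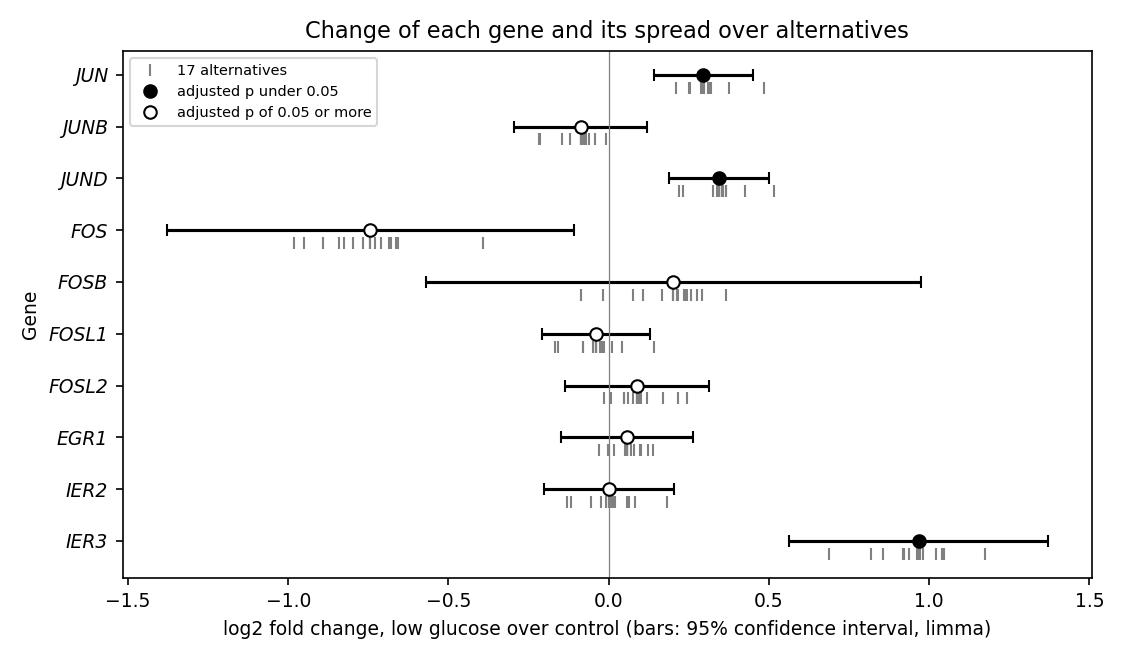
Log2 fold change of each of the 10 genes (low glucose minus control, points) with its 95% interval (bars), filled where the adjusted p was under 0.05, and its value under each of 17 alternatives (grey ticks). JUN, JUND and IER3 lie above 0 at 0.30, 0.34 and 0.97, the interval of FOS reaches from -1.38 to -0.11 without passing after adjustment, and the other 6 intervals include 0.

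In the FOS family no member passed the test. FOSL1 (FRA-1), which lacks the transactivation domain of FOS and is the most abundant family member here, lies on the minus strand of chr11:65892049-65900573. It had 1353, 1531 and 1410 normalized counts in control and 1343, 1471 and 1362 in low glucose. The conditions overlapped, and the log2 fold change of -0.04 had a 95% interval of -0.21 to 0.13 (limma adjusted p = 0.747). FOSL2 (FRA-2), a related protein encoded on the plus strand of chr2:28392448-28417317, had 916, 1139 and 828 normalized counts in control and 1072, 1001 and 967 in low glucose. The control library of 10126218 reads was the highest of the 6. With it the log2 fold change was 0.09 (limma adjusted p = 0.575), and without it 0.22 (limma adjusted p = 0.026).

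FOS, the prototype immediate early gene, on the plus strand of chr14:75278826-75282230, was near the limit of what this depth can compare. Control libraries held 34 to 43 of its reads and low-glucose libraries 16 to 42. The normalized counts were 38.1, 47.9 and 46.0 in control and 15.4, 34.6 and 31.8 in low glucose. All low-glucose libraries were below all control libraries, with replicate 1 farthest down. The log2 fold change of -0.74 (SE 0.297, 95% interval -1.38 to -0.11) had a limma adjusted p of 0.0713. It was -0.39 without low glucose replicate 1 (limma adjusted p = 0.306), and it passed 0.05 with quantile normalization, a GC correction or a length correction (limma adjusted p = 0.0209, 0.0472 and 0.0468). FOSB, a further inducible member on the plus strand of chr19:45467995-45475179, was counted with 9 to 12 control reads per library and 13 to 19 low-glucose reads. Its log2 fold change of 0.20 (95% interval -0.57 to 0.98) does not separate a fall from a rise.

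IER3, an early response gene that regulates apoptosis and is known to be induced by NF-kappaB and p53, had the largest change of the 10 genes. It lies on the minus strand of chr6:30743199-30744548. The control libraries had 159, 97.0 and 192 normalized counts and the low-glucose libraries 262, 300.3 and 284. The lowest low-glucose library stood above the highest control library, and the control library of 10126218 reads was the lowest of all. The means were 149 ± 48.1 and 282 ± 19.4 (SD, n = 3 each). The fitted log2 fold change, a difference of mean log2 values, was 0.97 (SE 0.189, limma adjusted p = 0.00133). Without that control library the log2 fold change was 0.69, and the call held. IER3-AS1 shares 440 exonic bases on the opposite strand, had 14.9 to 37.9% as many reads and rose by 1.55 (limma adjusted p = 0.00294). HCG20 shares 85 bases, had 22.9 to 35.5% as many reads and rose by 1.25 (limma adjusted p = 0.000336). The part of their reads in the IER3 values was not tested.

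IER2 and EGR1 differed by less than the spread between libraries. IER2, a nuclear protein of the serum response, lies on the plus strand of chr19:13150411-13154911 and had 1531, 1202 and 1544 normalized counts in control and 1404, 1384 and 1465 in low glucose. The control library of 10126218 reads was again the lowest. The log2 fold change was 0.00 with a 95% interval of -0.20 to 0.20 (limma adjusted p = 0.995). ENSG00000267598 on the opposite strand shares 946 exonic bases with IER2 and had 66.9 to 72.5% as many reads in each library, so the IER2 values are uncertain. Within libraries the reads of IER3 were 0.104, 0.0807 and 0.124 of those of IER2 in control. In low glucose they were 0.186, 0.217 and 0.194 of them, with no overlap. This ratio was also chosen after the values were seen, carries no test and rests on the uncertain IER2 values.

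EGR1, a zinc finger factor of the serum response, lies on the plus strand of chr5:138465479-138469303. It had 461, 387 and 417 normalized counts in control and 438, 413 and 464 in low glucose. The overlap was broad, and the log2 fold change of 0.06 had a 95% interval of -0.15 to 0.26 (limma adjusted p = 0.697). EGR1 is shown because it alone among the 8 promoters held CArG boxes, the site of serum response factor, in the window searched. That window was 250 bases before to 50 after the start, and 1.29% of all promoters held such a box in it. Sites farther from the start were not searched, so the other genes may hold boxes there. The stretch is 120 to 61 bases before the start, chr5:138465359-138465418 on the plus strand, from RefSeq (GRCh38.p14), with the 2 CArG boxes in capitals.
EGR1: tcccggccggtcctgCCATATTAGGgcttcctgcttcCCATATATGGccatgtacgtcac
The boxes lay 105 to 96 and 83 to 74 bases before the start.

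To compare levels between genes, reads were divided by the length of merged exons and scaled to the same sum in every library (TPM). In control the order was FOSL1 (229 ± 12.5 TPM), JUN (209 ± 7.18), JUND (173 ± 3.75), IER2 (140 ± 19.8), JUNB (55.9 ± 2.59), EGR1 (40.6 ± 4.15), FOSL2 (40.5 ± 6.65), IER3 (33.3 ± 10.7), FOS (4.16 ± 0.435) and FOSB (0.640 ± 0.108), each as mean ± SD with n = 3. Neighbours whose ranges overlapped were EGR1 with FOSL2 and FOSL2 with IER3. In low glucose JUN came first at 246 ± 4.21 TPM, ahead of FOSL1 at 213 ± 8.33 and JUND at 211 ± 4.64, which overlapped. IER3, at 60.3 ± 3.74 TPM, stood above JUNB at 50.5 ± 4.17. FOS (2.47 ± 0.930) and FOSB (0.724 ± 0.213) were last in both conditions. By mean TPM over the 6 libraries, 97.5% of genes tested that have an annotated length lay below JUN and 97.4% below FOSL1, against 40.5% below FOS.

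Within the families these levels can be written as shares of the summed TPM. FOSL1 made up 83.5 ± 1.44% of the FOS family in control and 82.9 ± 0.805% in low glucose, and FOSL2 14.7 ± 1.48% and 15.9 ± 1.18%. FOS held 1.52 ± 0.125% and 0.956 ± 0.346%, so transcripts of the FRA proteins dominated in both conditions. In the JUN family, JUN held 47.7 ± 0.895% and 48.4 ± 0.406% and JUND 39.6 ± 0.572% and 41.6 ± 0.197%. The share of JUNB ranged over 11.9 to 13.5% of control and 9.47 to 10.6% of low-glucose transcripts, without overlap. The summed JUN family was 438 ± 7.30 TPM in control and 507 ± 12.9 in low glucose, and the FOS family 274 ± 19.0 and 257 ± 7.99 (SD, n = 3 each). These are descriptions with no test.

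**Figure D3:**
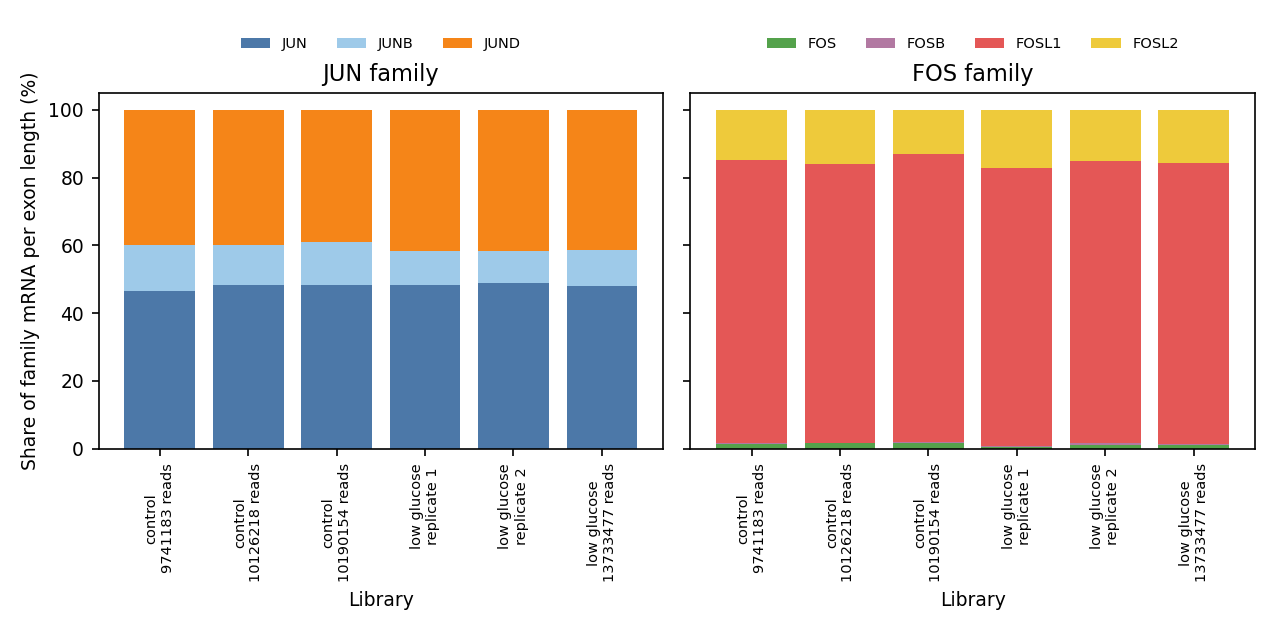
Share of each gene in the summed TPM of its family (percent, stacked bars from 0 to 100) in each of the 6 libraries. FOSL1 fills about 83.5% of the FOS family in control and 82.9% in low glucose, and JUNB narrows from 12.8% to 9.95% of the JUN family.

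Short-lived transcripts often carry the pentamer ATTTA in the 3′ untranslated region, so its number was counted in the Gencode v44 transcripts. IER3 had 6 in 737 bases, 8.14 per kilobase, a density reached by 1.89% of 13672 coding genes tested. FOS had 5 in 806 bases, 6.20 per kilobase, reached by 4.75%. Of the 2 genes with the densest pentamers, IER3 rose and FOS had the log2 fold change of -0.74 that missed the threshold. The highest number was in FOSL2, 9 in its longer 3′ region of 4869 bases. FOSB and JUN had 3, JUNB 2, JUND, FOSL1 and EGR1 1 and IER2 0, and 70.6% of coding genes held at least 1, with a median of 1.58 per kilobase. The genes with the pattern most like IER3 over the 6 libraries, by the root mean square difference of log2 values among 11830 genes, were WDR38 (0.0702), PGGHG (0.0996) and GAS5 (0.108).

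The other genes of the pathway were grouped in 7 lists chosen with earlier results of these data known, and each is described by its counts beside the 30.9% of all genes that passed and the median of 0.05. Among 13 ATF, BATF, JDP2 and MAF genes, whose proteins can pair with FOS or JUN proteins, 11 were tested, 5 rose and 0 fell, with a median log2 fold change of 0.56. At an unadjusted p under 0.05, 0 were lower and 6 higher, and edgeR and DESeq2 called 0 lower as well. ATF3, a stress-induced factor, went from 55.1 ± 22.4 to 363 ± 32.4 normalized counts, a log2 fold change of 2.77 (limma adjusted p = 6.92e-07). JDP2, a JUN partner that represses AP-1 sites, rose from 64.1 ± 14.3 to 245 ± 13.9, or by 1.94 (limma adjusted p = 1.20e-06). MAFF, a small MAF protein, rose by 0.94 (limma adjusted p = 2.01e-05). PLA2G6, opposite MAFF over 326 bases with 44.9 to 76% as many reads, rose by 0.77. The part of PLA2G6 reads in the MAFF values was not tested.

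Of 24 other immediate early and rapidly induced genes 23 were tested, 7 rose, 3 fell and 13 did not pass, with a median of 0.07. KLF4, a zinc finger factor, rose from 380 ± 43.2 to 657 ± 16.4 normalized counts (log2 fold change 0.80, limma adjusted p = 2.75e-05). MYC, a growth regulator, rose by 0.45 (limma adjusted p = 0.000397) and GADD45B, a stress sensor, by 0.46 (limma adjusted p = 0.0394). MCL1, a short-lived survival protein, fell by 0.42 on the log2 scale (limma adjusted p = 0.00117), and CCN2, a matricellular protein, by 0.54 (limma adjusted p = 0.0294). CASC11, which shares 194 bases with MYC on the opposite strand and had 21.2 to 27.0% as many reads, rose by 0.59. ADAMTSL4, opposite MCL1 over 43 bases with 4.96 to 16.9% as many reads, rose by 0.91. Genes of the class that passed thus lay in both directions. The number passing was 10, and it was 6 when low glucose replicate 2 or the low-glucose library of 13733477 reads was left out. It was 14 without the control library of 10126218 reads. Of SRF, its cofactors and the EGR1 repressors (8 genes, all tested), 0 rose and 2 fell, with a median of -0.21. SRF itself fell by 0.28 on the log2 scale (limma adjusted p = 0.0293) and ELK3, a ternary complex factor, by 0.36 (limma adjusted p = 0.00845). ENSG00000258177, opposite ELK3 over 209 bases with 16.1 to 18.2% as many reads, fell by 0.41 on the log2 scale. At an unadjusted p under 0.05, 0 were higher and 3 lower, edgeR and DESeq2 called 0 higher, and quantile normalization called 1 higher. Without low glucose replicate 1 or replicate 2, 0 genes of this list passed.

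Of 22 MAP kinases and their activating kinases, 21 were tested, 3 rose, 6 fell and 12 did not pass (median -0.03). Without low glucose replicate 1 or replicate 2, 5 passed in place of 9. MAP2K3, which activates p38, fell from 1258 ± 38.4 to 688 ± 20.6 normalized counts, a log2 fold change of -0.87 (limma adjusted p = 1.49e-06). MAP2K4, which activates JNK, the kinase that phosphorylates JUN, fell by 0.56 on the log2 scale (limma adjusted p = 0.00248). MAPK7 (ERK5) and MAP2K5, which activates it, rose by 0.42 and 0.36, and MAPK12 by 0.37 (limma adjusted p = 0.00727, 0.0311 and 0.0221). MAPK7 shares 243 bases with B9D1 on the opposite strand, which had 141 to 177% as many reads and rose by 0.37. MAPK12 shares 2763 exonic bases with HDAC10 on the same strand. HDAC10 had 26, 27 and 50 reads in control and 46, 53 and 85 in low glucose, and its part in the MAPK12 values was not tested. Of 17 MAP kinase phosphatase and Sprouty or Spred genes, which damp the pathway, 15 were tested, 4 rose and 2 fell (median 0.14). DUSP5, a nuclear ERK phosphatase, rose by 0.45, SPRED3 by 0.65 and SPRY4 by 0.25 (limma adjusted p = 0.0131, 0.0153 and 0.0230). SPRY1 fell by 0.77 and DUSP2 by 0.61 on the log2 scale (limma adjusted p = 7.04e-05 and 0.0228), so members of the same feedback families moved in opposite directions. Without low glucose replicate 2 or the low-glucose library of 13733477 reads 2 genes passed in place of 6, and 3 passed when the control of 9741183 reads was omitted.

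All 7 ubiquitin ligase genes that act on JUN or FOS proteins were tested, and 1 rose and 2 fell (median 0.11). Without low glucose replicate 1 or the low-glucose library of 13733477 reads 0 passed, and without replicate 2, 1 passed. With the control library of 10126218 reads left out, 4 passed. FBXW7, a substrate receptor for phosphorylated JUN, rose by 0.39 with a limma adjusted p of 0.0499, just inside the threshold. It was the only rise of the list, and 0 rose with DESeq2, no filter on low values, a pseudocount of 0.1, quantile normalization, the GC correction or no variance trend. DDB1 and CUL4A, parts of a ligase that carries COP1, fell by 0.39 and 0.25 on the log2 scale (limma adjusted p = 0.00721 and 0.0225). PCID2 shares 437 bases with CUL4A on the opposite strand and had 24.6 to 36.9% as many reads, with a log2 fold change of 0.18 (limma adjusted p = 0.159). TKFC, opposite DDB1 over 493 bases with 6.02 to 13.8% as many reads, rose by 0.32 (limma adjusted p = 0.0202). Of 20 genes described as AP-1 targets in carcinoma cells 16 were tested, 6 rose and 4 fell, with a median of 0.24. MMP3, MMP10, MMP13 and IL6 were below the filter. CXCL8, a chemokine, rose from 885 ± 74.1 to 2002 ± 108 normalized counts (log2 fold change 1.18, limma adjusted p = 2.38e-07). AREG, a ligand of the EGF receptor, rose by 1.14 on the log2 scale (limma adjusted p = 2.84e-06). CCND1, the G1 cyclin, fell by 0.80 and CD44, a hyaluronan receptor, by 0.47 on the log2 scale (limma adjusted p = 0.00011 and 0.000641). On their opposite strands LTO1, with 24.1 to 44.7% of the reads of CCND1, fell by 0.26 and CD44-AS1, with 12.5 to 15.1% of those of CD44, by 0.28 on the log2 scale. Other factors drive these genes as well, and the part of AP-1 in their values was not tested.

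**Figure D4:**
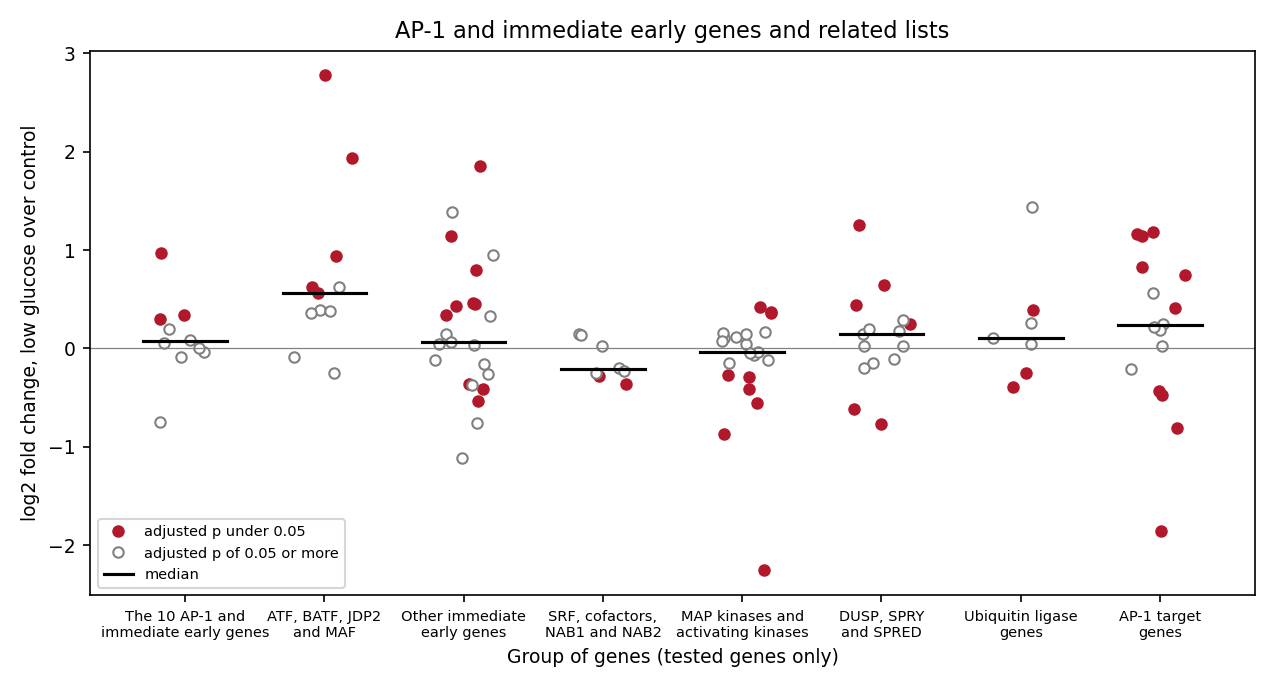
Log2 fold change (low glucose minus control) of every tested gene of the 7 lists, a point for each gene, beside the same for the 10 AP-1 and immediate early genes. Filled points passed 0.05 with limma, open points did not, and a line marks each median. The partner list has 5 rises and 0 falls around a median of 0.56, while calls in the other lists, the SRF list apart, lie on both sides of 0.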

How the data were processed

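RNA-seq of 3 control and 3 low-glucose libraries of MiaPaCa-2 was analysed from 1 table. Per the labels, a strand-specific kit was used, and the submitters' processing notes name CASAVA, FastQC, Trim Galore, STAR 2.7.0e, DESeq2 and hg38. RSEM stands in the software list of the paper, which does not tie it to these counts, and the strand setting and annotation are not given in the sources used here. The deposited values are a signal: the authors scaled the gene counts of a library by its DESeq2 size factor. In every library 100% of values were whole multiples of a step (tolerance 0.01 of a read), so whole reads were recovered, and the steps matched size factors recomputed over 17906 genes. Of the 60668 genes 28453 had a read, and 99.5% of identifiers matched Gencode v44. Rows for 45 pseudoautosomal chromosome Y copies (1 read in all) stayed out, and columns not used numbered 0.

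Log2(value + 1) was tested with limma 3.58.1 (lmFit, eBayes with trend, R 4.3.3), two-sided, after genes with means under 1 were dropped, and p-values were adjusted by Benjamini-Hochberg and read at 0.05. The code was tested on simulated data. An exact permutation test of 3 against 3 cannot go below 0.1 and was not used. On the recovered reads edgeR 4.0.16 (quasi-likelihood) called 6554 genes and DESeq2 1.42.0 called 5654, against 6528 with limma. Further alternatives were a pseudocount of 0.1, a minimum mean of 5 or none, library size scaling, TMM, quantile normalization, GC and length corrections by loess (span 0.3), no variance trend, each library left out, and the longest transcript as length. The depth of 9741183 to 13733477 reads leaves FOS and FOSB imprecise. RefSeq promoters had an entry for 8 of the 10 genes, and FOSL1 and IER3 had none.

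The 10 genes and the lists were chosen with earlier results of these data known. From each list, the rule named up to 3 of the largest rises and up to 2 of the largest falls that passed 0.05 and averaged 50 normalized counts or more, and it named the 3 patterns nearest to the gene with the largest change. A gene that the rule chose is not reported here. Partners on the other strand, and for MAPK12 on the same strand, were looked up afterwards.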

Additional observations from a re-analysis of the deposited data

How the results depend on the processing

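Each gene was recomputed under 17 alternatives, 6 of them leaving out a library. JUND passed 0.05 in all 17, with log2 fold changes of 0.22 to 0.52. JUN and IER3 passed in all but the fit without a variance trend, where JUN was 0.30 (limma adjusted p = 0.064) and IER3 0.97 (limma adjusted p = 0.0584). With that fit 1 of the 10 genes passed (JUND) and 4090 genes in all, and the cause was not tested. Otherwise 3 or 4 of the 10 passed. JUN ranged from 0.21 to 0.48, and from 0.25 to 0.32 with a library left out. It was near the threshold with the GC correction (limma adjusted p = 0.0367). The same held without the control library of 9741183 reads (limma adjusted p = 0.0475). FOS passed with quantile normalization (-0.98), the GC correction (-0.83) and the length correction (-0.80).

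Signs near 0 turned. FOSL1 was 0.0412 with library size scaling and 0.14 with quantile normalization, and -0.0799 to 0.00998 with a library left out. FOSB was -0.0856 with quantile normalization and -0.0178 to 0.37 with a library left out. IER2 was -0.00785 with DESeq2, -0.13 with the GC and -0.0561 with the length correction, and -0.12 to 0.06 with a library left out. EGR1 was -0.0295 with the GC correction and -0.0028 to 0.12 with a library left out. FOSL2 ranged from -0.0132 to 0.22 with a library left out, IER3 from 0.69 to 1.17 and FOS over adjusted p of 0.063 to 0.306.

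Counts of genes passing moved by more than 1.5 times as follows. The SRF list had 1 with library size scaling, 0 without the trend, 4 with the GC correction and 0 to 2 with a library left out. The ubiquitin ligase list had 0 with quantile normalization, 0 without the trend and 0 to 4 with a library left out. The MAP kinases had 5 without the trend and 5 to 11 with a library left out, the phosphatase list 2 and 2 to 6, and the other immediate early genes 6 to 14 with a library left out. Over all genes, leaving out a library gave 4298 (low glucose replicate 1) to 7173. With the longest transcript as length, the shares in control and low glucose were 50.3 and 51.1% for JUN, 37.5 and 39.5% for JUND, 2.07 and 1.31% for FOS, and 0.309 and 0.373% for FOSB.

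No paired analysis was possible because replicate numbers are missing from 4 of 6 columns. Between scalings, the median log2 fold change of 13769 well-expressed genes lay between -0.03 and 0.06. With 3 libraries per condition, differences as small as those of EGR1 and JUNB could not be shown.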
